A study of Bos taurus with 16 samples.

Results

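The tumour suppressor p53 is a transcription factor that is stabilised by DNA damage and other stress. It raises genes that halt the cell cycle, repair DNA, adjust metabolism or start apoptosis, and among its targets is MDM2, the ubiquitin ligase that returns p53 to a low level. Apoptosis through mitochondria is set by the BCL2 family: the BH3-only proteins relieve or activate the effectors BAX and BAK1, these open the outer mitochondrial membrane, and released cytochrome c (CYCS) joins APAF1 and caspase 9 in the apoptosome. Preimplantation embryos made in vitro often carry damaged cells, and both the inner cell mass and the trophectoderm lose some of them by apoptosis.

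The 45 genes described here were chosen by name as p53 targets and apoptosis machinery, with earlier results of these data known. All 45 were listed among 38959 genes of the first blastocyst table and 37429 of the second, and 43 among 28303 genes of the table of bovine embryonic stem cells (bESCs), where BBC3 and BIK carry no row under these names. They were ordered by role. The p53 target roles held 21 genes: 8 of cell cycle arrest and feedback (MDM2, MDM4, CDKN1A, CCNG1, BTG2, GADD45A, GADD45B and SFN), 5 of death and growth (ZMAT3, PERP, AEN, PHLDA3 and PDCD4), 6 of metabolism and stress (TP53I3, TP53INP1, SESN1, TIGAR, FDXR and RRM2B) and 2 of DNA repair (XPC and DDB2). The apoptosis roles held 24: 3 prosurvival BCL2 proteins (BCL2, BCL2L1 and MCL1), 2 effectors (BAX and BAK1), 7 BH3-only proteins (BBC3, PMAIP1, BID, BCL2L11, BAD, BIK and BMF), 7 of the apoptosome and caspases (CYCS, APAF1, CASP9, CASP2, CASP8, CASP6 and DIABLO), 3 inhibitor of apoptosis proteins (XIAP, BIRC2 and BIRC3) and 2 of the death receptor route (FAS and FADD). Some genes belong to both routes, as BAX, BBC3, PMAIP1 and FAS are also known p53 targets. They are counted in the apoptosis roles only, so counts and medians of the p53 target roles leave them out.

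LY2955303 (LY) is an inhibitor of retinoic acid receptor gamma. The study sequenced single wild-type bovine blastocysts of day 8, 1 embryo per library, that were fertilised in vitro from slaughterhouse oocytes and cultured with LIF, FGF2 and IGF1 in every group. The first experiment compared 3 blastocysts that received 10 μM LY from the 2-cell stage on (LY10) with 3 given the DMSO vehicle (DMSO). The second held 2 blastocysts given LY from the 2-cell stage (cell2_LY), 2 given LY from the 16-cell stage (cell16_LY) and 2 labelled LY_DMSO, taken as the vehicle control of both, and its labels give no dose. The bESCs, lines from the inner cell mass kept on mouse feeder cells in the TiFX medium, gave 2 libraries treated with 10 μM LY for 3 days (bESC_LY) and 2 labelled with the medium alone (bESC_tifx). The study describes DMSO as the control of the bESCs, and the labels do not say whether bESC_tifx carried that vehicle. Nothing says that the bESC libraries came from separate cultures, so their p-values measure only the spread between these libraries. A blastocyst library mixes all cells of the embryo, so fewer cells of a type and less RNA per cell cannot be told apart.

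The deposited values were FPKM, sequenced fragments relative to the length of a gene and the size of its library, which were put back to reads and scaled to a common library size; these normalized counts serve for a gene between libraries and FPKM for levels between genes. Depth was 7905768 to 17343140 reads on genes in a blastocyst and 29055323 to 31230432 in a bESC library. Genes averaging at least 10 normalized counts entered a limma fit of log2(normalized count + 1), and a gene is said to have risen or fallen where its unadjusted p was under 0.05 and its absolute log2 fold change above 1, the threshold of the study. With all libraries at equal weight, no member had an adjusted p under 0.05 in any of the 5 comparisons (limma with Benjamini-Hochberg adjustment over all tested genes); the alternatives in which some did are given with the comparison. Of all tested genes, 0.014% did in LY10 against DMSO, 0.0138% in cell2_LY against LY_DMSO and 0 in the other 3 comparisons. The trophectoderm keratin KRT8 was at 29831 to 122407 normalized counts in the blastocysts, and the pluripotency factor POU5F1 at 31989 to 36960 in the bESCs, where the trophectoderm genes were low or uneven, GATA3 at 8.47 to 39.3, CDX2 at 9.53 to 597 and KRT8 at 4751 to 16392. The hypoblast factor SOX17 was at 0 to 3.98 in the blastocysts, while GATA6, of the same lineage, was at 1703 to 4836.

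In the blastocysts 1 gene held most of the RNA of the prosurvival, the BH3-only and the caspase family, and the bESCs had another make-up. Among the prosurvival genes MCL1, a short-lived guardian of mitochondria, held 88.2% to 95.9% of the summed FPKM in the 6 libraries of the first blastocyst table and 84.5% to 90.3% in the second, against 58.0% to 65.4% in the bESCs, where BCL2L1 (BCL-XL) held 29.7% to 34.9%. BCL2 itself had 0 reads in all 6 libraries of the first blastocyst table, where the count of 0 allows up to 4.09 normalized counts in the shallowest library, and 0 to 6 reads in the second. In the bESC libraries BCL2 was at 64.9 and 130.3 normalized counts without LY and at 91.0 and 175 with it. The 3 tables were normalized separately and the bESC table uses other gene models and lengths, so these shares were set side by side and not tested.

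Among the BH3-only genes PMAIP1 (NOXA), which binds MCL1, held 67.4% to 88.7% of the FPKM in the first blastocyst table and 65.6% to 86.7% in the second. In the bESCs it held 6.43% to 12.1%, and BID, the caspase 8 substrate, held 45.2% to 49.6%; BBC3 and BIK were not part of that sum. Of the 4 caspases, the executioner CASP6 held 92.4% to 98.0% and 95.7% to 97.8% in the blastocyst tables. In the bESCs CASP6 shared the total with CASP2 at 34.7% to 41.7% and CASP9 at 20.4% to 22.3%. The stacked shares by library show the same leading gene of these 3 families in every blastocyst, whichever the treatment, while of the effectors BAK1 led in LY10 replicate 2 and BAX in the other blastocysts.

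**Figure D1:**
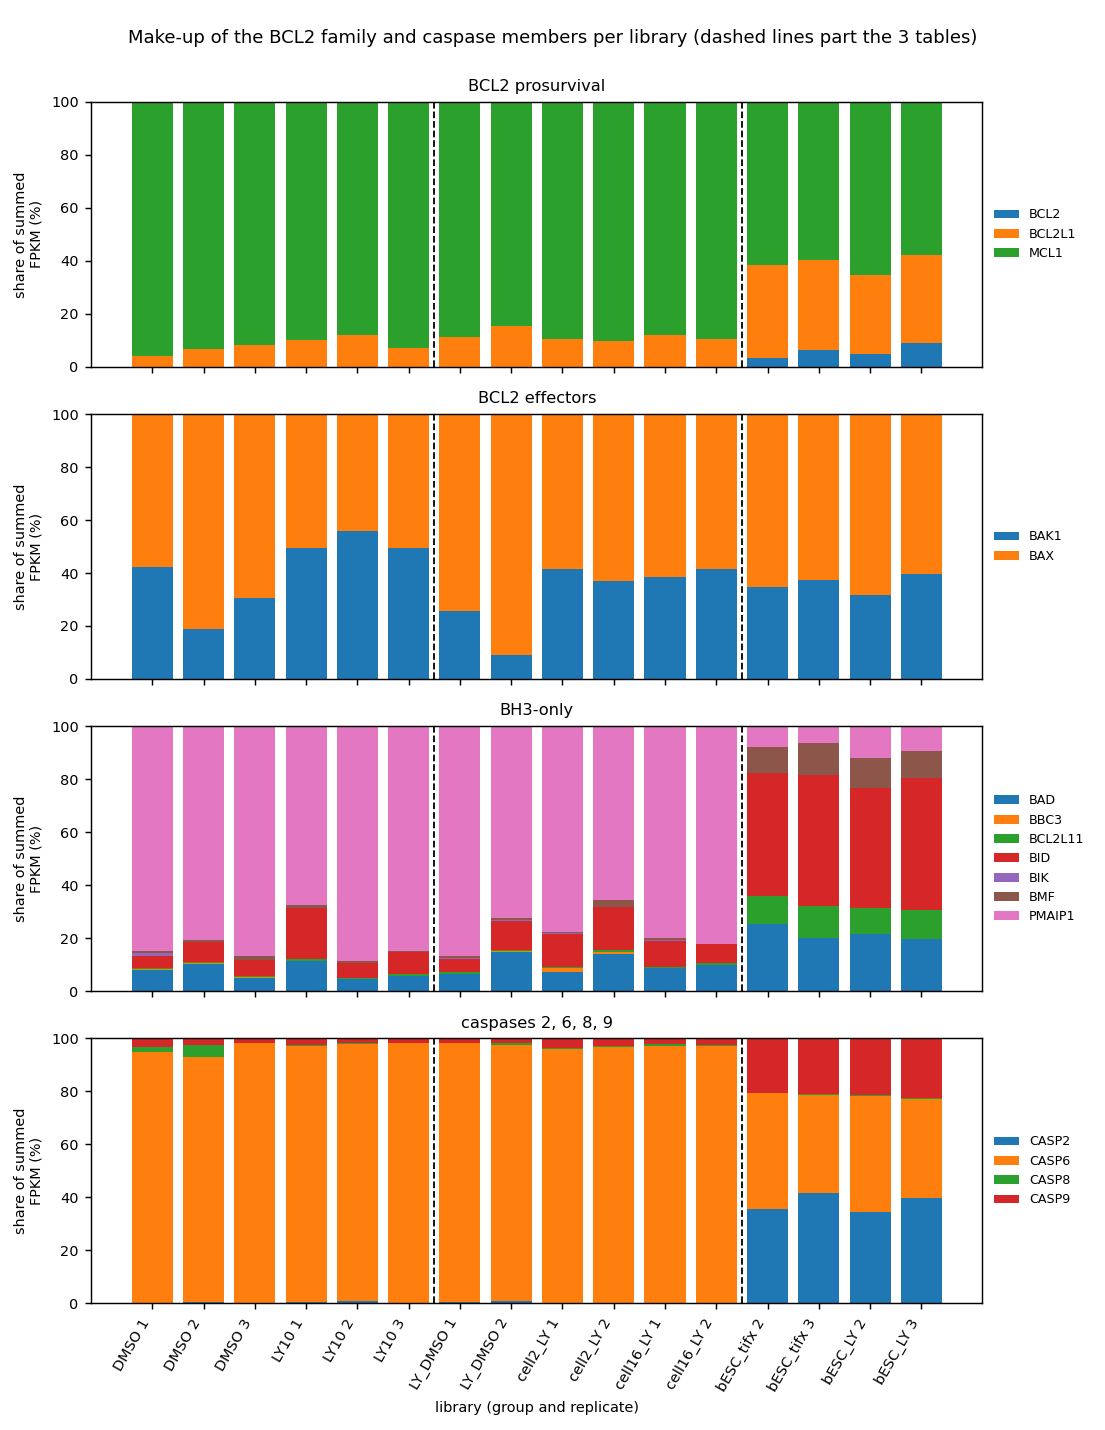
Share of the summed FPKM (%) that each gene held within 4 families of members, 1 bar per library, with the libraries of the 3 tables parted by dashed lines. MCL1, PMAIP1 and CASP6 led in all 12 blastocysts, BAX and BAK1 changed places between libraries, and in the bESCs BID led the BH3-only genes and CASP2 and CASP6 were near each other.

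Ranked by mean FPKM, CYCS, CCNG1, PERP, CASP6 and MCL1 were the 5 most abundant members of both blastocyst tables, in this order. In the bESCs the order was CCNG1, XPC, PHLDA3, CYCS and MCL1. The gene model of PHLDA3 is 372 bases long in the bESC table and 1866 in the blastocyst tables. In normalized counts, which are not divided by gene length, PHLDA3 averaged 583 in the bESCs and MCL1 4180. The order of these genes therefore depends on the measure. CCNG1 (cyclin G1) is a p53 target that works with MDM2, and PERP is a membrane protein of desmosomes and apoptosis. At the low end, DDB2, a damage recognition protein, had 14, 0 and 8 reads in DMSO and 11, 19 and 3 in LY10, and 430 to 640 reads in the bESC libraries. BIK had at most 15 reads in any blastocyst. Of the metabolic targets, TIGAR had the highest and RRM2B the lowest mean FPKM in both blastocyst tables, 23.0 and 2.47 in the first. Of the checkpoint genes CCNG1 was highest and MDM4 lowest by mean FPKM, at 333 and 3.12 in the first table and 341 and 4.74 in the second. The gene model of MDM4 is 32987 bases long in these tables. In normalized counts MDM4 averaged 1096 and 2385 and CDKN1A 174 and 213, so their order too depends on the measure. Of the death and growth targets PERP was at 213 and 242 FPKM and ZMAT3, the lowest, at 7.32 and 8.12. In the bESCs the lowest of each of these roles were GADD45B, TP53I3 and ZMAT3.

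Among the inhibitors of apoptosis, ubiquitin ligases that bind caspases or receptor complexes, BIRC2 led with a mean of 9.56 FPKM in the first blastocyst table and 7.95 in the second, over BIRC3 at 4.24 and 3.54. In the bESCs BIRC2 was at 4.96 and XIAP, the direct caspase inhibitor, lowest at 3.01. FADD, the adaptor of death receptors, was at 34.9 and 38.8 FPKM in the blastocyst tables and 12.6 in the bESCs. FAS was at 0.762, 1.12 and 0.882, but its gene model is 23897 bases long in the blastocyst tables and 2859 in the bESC table, so its FPKM are not comparable between them.

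At the unadjusted threshold, LY10 blastocysts had less RNA than DMSO blastocysts from several p53 targets. In the apoptosis roles, falls past that threshold were about as frequent as among all tested genes. Of the 41 members tested, 8 fell and 0 rose, where 14.7% of all 14249 tested genes passed the same threshold, 8.51% lower and 6.2% higher. The 8 were CDKN1A, MDM2, BTG2, ZMAT3, PHLDA3 and SESN1 of the p53 target roles (6 of 20 tested), and CYCS and BAX of the apoptosis roles (2 of 21). The median log2 fold change was -0.54 over the p53 target roles and -0.15 over the apoptosis roles, beside -0.05 over all tested genes. Without LY10 replicate 2 the p53 median was -0.34, and without DMSO replicate 3, LY10 replicate 2 or LY10 replicate 3 the apoptosis median was -0.31, -0.23 or -0.27. As deviation from the mean over the libraries of the table, the p53 median was 0.21 in LY10 replicate 1 and -0.01 in DMSO replicate 1. By this median the groups overlapped. BCL2, BBC3, BIK and DDB2 were under the filter. By role, 6 of 8 checkpoint genes, 4 of 5 death and growth targets and 4 of 5 BH3-only genes were lower, while the 6 metabolic targets were split 3 and 3.

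CDKN1A (p21; chr23:10573389-10590591, plus strand), the inhibitor of cyclin-dependent kinases that p53 raises to stop the cell cycle, was at 168, 432 and 237 normalized counts in the DMSO blastocysts and at 36.8, 103 and 67.3 in LY10. Every LY10 blastocyst lay below every DMSO blastocyst (log2 fold change -2.01, SE 0.48, adjusted p = 0.082 by limma). MDM2 (chr5:44977671-45005325, minus strand), which marks p53 for degradation, was at 1964, 4264 and 8086 in DMSO and 2317, 1933 and 1374 in LY10. Its groups overlapped, since DMSO replicate 1 lay within the LY10 range while the other 2 lay above it (log2 fold change -1.15, SE 0.46, adjusted p = 0.188). BTG2 (chr16:1087372-1091478), an antiproliferative p53 target, was at 478, 350.2 and 249 in DMSO and at 139, 167 and 176 in LY10, with no overlap (log2 fold change -1.11, SE 0.31, adjusted p = 0.0997). SFN (14-3-3 sigma), which holds cells at G2, went the other way with values of 168, 85.6 and 675 against 792, 347 and 535, a log2 difference of 1.30 that did not pass (adjusted p = 0.282 by limma).

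ZMAT3 (chr1:88005950-88044844), an RNA-binding p53 target, was at 727, 887 and 1333 normalized counts in DMSO and 492, 477 and 330.2 in LY10. The groups did not overlap (log2 fold change -1.16, SE 0.30, adjusted p = 0.0881 by limma). PHLDA3 (chr16:80876874-80879903), a repressor of AKT, was at 368, 785 and 538 in DMSO and 455, 174 and 113 in LY10. LY10 replicate 1 lay among the DMSO blastocysts, and the other 2 below all of them (log2 fold change -1.37, SE 0.51, adjusted p = 0.162). SESN1 (chr9:41069131-41183445), a sestrin that restrains mTORC1, was at 227, 298 and 570 against 236, 160.2 and 115, again with LY10 replicate 1 inside the DMSO range (log2 fold change -1.04, SE 0.41, adjusted p = 0.183). TP53I3, XPC and PERP gave log2 differences of 0.10, -0.03 and 0.21, none of them past the threshold.

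CYCS (chr4:70735436-70738314), the electron carrier whose release forms the apoptosome, was the most abundant member and at 19154, 26844 and 15429 normalized counts in DMSO against 7583, 6669 and 10445 in LY10. All 3 LY10 blastocysts lay below all 3 DMSO blastocysts (log2 fold change -1.30, SE 0.27, adjusted p = 0.0783 by limma). The blastocyst annotation lists 7 further genes described as the same protein, the highest at a mean of 638 normalized counts beside 14354 for CYCS, and reads between such copies could be split. BAX (chr18:55530787-55534997) was at 63.7, 149 and 105 in DMSO and 51.8, 41.6 and 29.8 in LY10, low counts with no overlap (log2 fold change -1.30, SE 0.45, adjusted p = 0.144). BAX overlaps TULP2 on the other strand, at a mean of 28.6 normalized counts, and whether counting used the strand is not given in the sources used here. BAK1, the other effector, was at 212, 157 and 210.1 in DMSO and 232, 239 and 132 in LY10, with a log2 difference of 0.02 (adjusted p = 0.976). Of the effector FPKM, BAK1 held 49.3% to 55.7% in LY10 and 18.8% to 42.2% in DMSO, shares that did not overlap.

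In all, 11 members had an unadjusted p under 0.05 by limma, beside 22.9% of all tested genes, and the 3 of these that did not reach the fold were the death receptor FAS at -0.95, the exonuclease AEN at -0.70 and the apoptosis inhibitor BIRC2 at -0.56 on the log2 scale. FAS was at 291, 213 and 254 normalized counts in DMSO and 87.3, 188 and 131 in LY10, and BIRC2 at 591, 538 and 664 in DMSO and 397, 351 and 477 in LY10, both without overlap. Between the groups 7 members did not overlap, each lower in LY10, where 28.1% of all tested genes did not overlap and 14.4% did so with LY10 lower. Of these members, 3 were among the 20 tested of the p53 target roles and 4 among the 21 of the apoptosis roles. CASP8, the initiator of the death receptor route, had the widest difference, -2.57 (adjusted p = 0.37), on values of 68.3, 195 and 2.19 in DMSO and 9.54, 18.8 and 0 in LY10. CASP8 overlaps FLACC1 on the other strand, at a mean of 4259. BBC3 (PUMA), under the filter, had 18, 15 and 11 reads in DMSO and 1, 5 and 1 in LY10, counts too low for a firm value.

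The 30 tested members with an unadjusted p of 0.05 or above reached from CASP8 to CASP2 at 1.31 (adjusted p = 0.567) and included MCL1 at -0.15, PMAIP1 at -0.56, CASP6 at 0.25 and CCNG1 at -0.62. MDM2 and SESN1 did not pass in 6 of the 17 alternatives run. With limma sample weights 8 members fell and 2 rose, since CASP8 and FAS fell and SFN and FDXR rose while MDM2 and SESN1 did not pass, and BTG2, CDKN1A, CYCS and ZMAT3 had an adjusted p under 0.05, as had 1551 of all tested genes. Without LY10 replicate 3, 3 members passed (CDKN1A, CYCS and BTG2). In DMSO replicate 3, 11.9% of all tested genes were over 2-fold higher and 18.6% over 2-fold lower than in DMSO replicate 1. Without DMSO replicate 3, 7 members fell and 2 rose (SFN and FDXR), with MDM2, SESN1 and ZMAT3 no longer past the threshold. In that fit CDKN1A, CYCS, BTG2 and SFN had an adjusted p under 0.05 by limma, as had 1963 of all tested genes. The summed fibroblast markers, 8 genes, were at 828 to 2397 normalized counts in DMSO and 260.4 to 404 in LY10, with TAGLN at 108 to 142 and 0 to 1.34. Some embryo lineage markers did not overlap either. POU5F1 was at 1896 to 2841 in DMSO and 3789 to 7052 in LY10, the hypoblast genes HNF4A at 7.96 to 45.02 and 142 to 269 and PDGFRA at 45.8 to 371 and 926 to 4099, and GATA6 at 2386 to 3960 and 1703 to 2111. Other lineage markers overlapped, such as NANOG at 50.3 to 388 in DMSO and 185 to 1786 in LY10. DPPA3 also overlapped but leaned opposite to POU5F1, at 3741 to 4629 and 1419 to 3947. The summed epiblast markers overlapped, at 7095 to 9970 in DMSO and 8819 to 13723 in LY10. So did the summed hypoblast markers, at 10915 to 20033 and 16899 to 26979. The part of these markers in the results was not tested. With quantile normalization 55.0% of all called genes were higher in LY10, against 42.2% here, and the same 8 members passed.

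**Figure D2:**
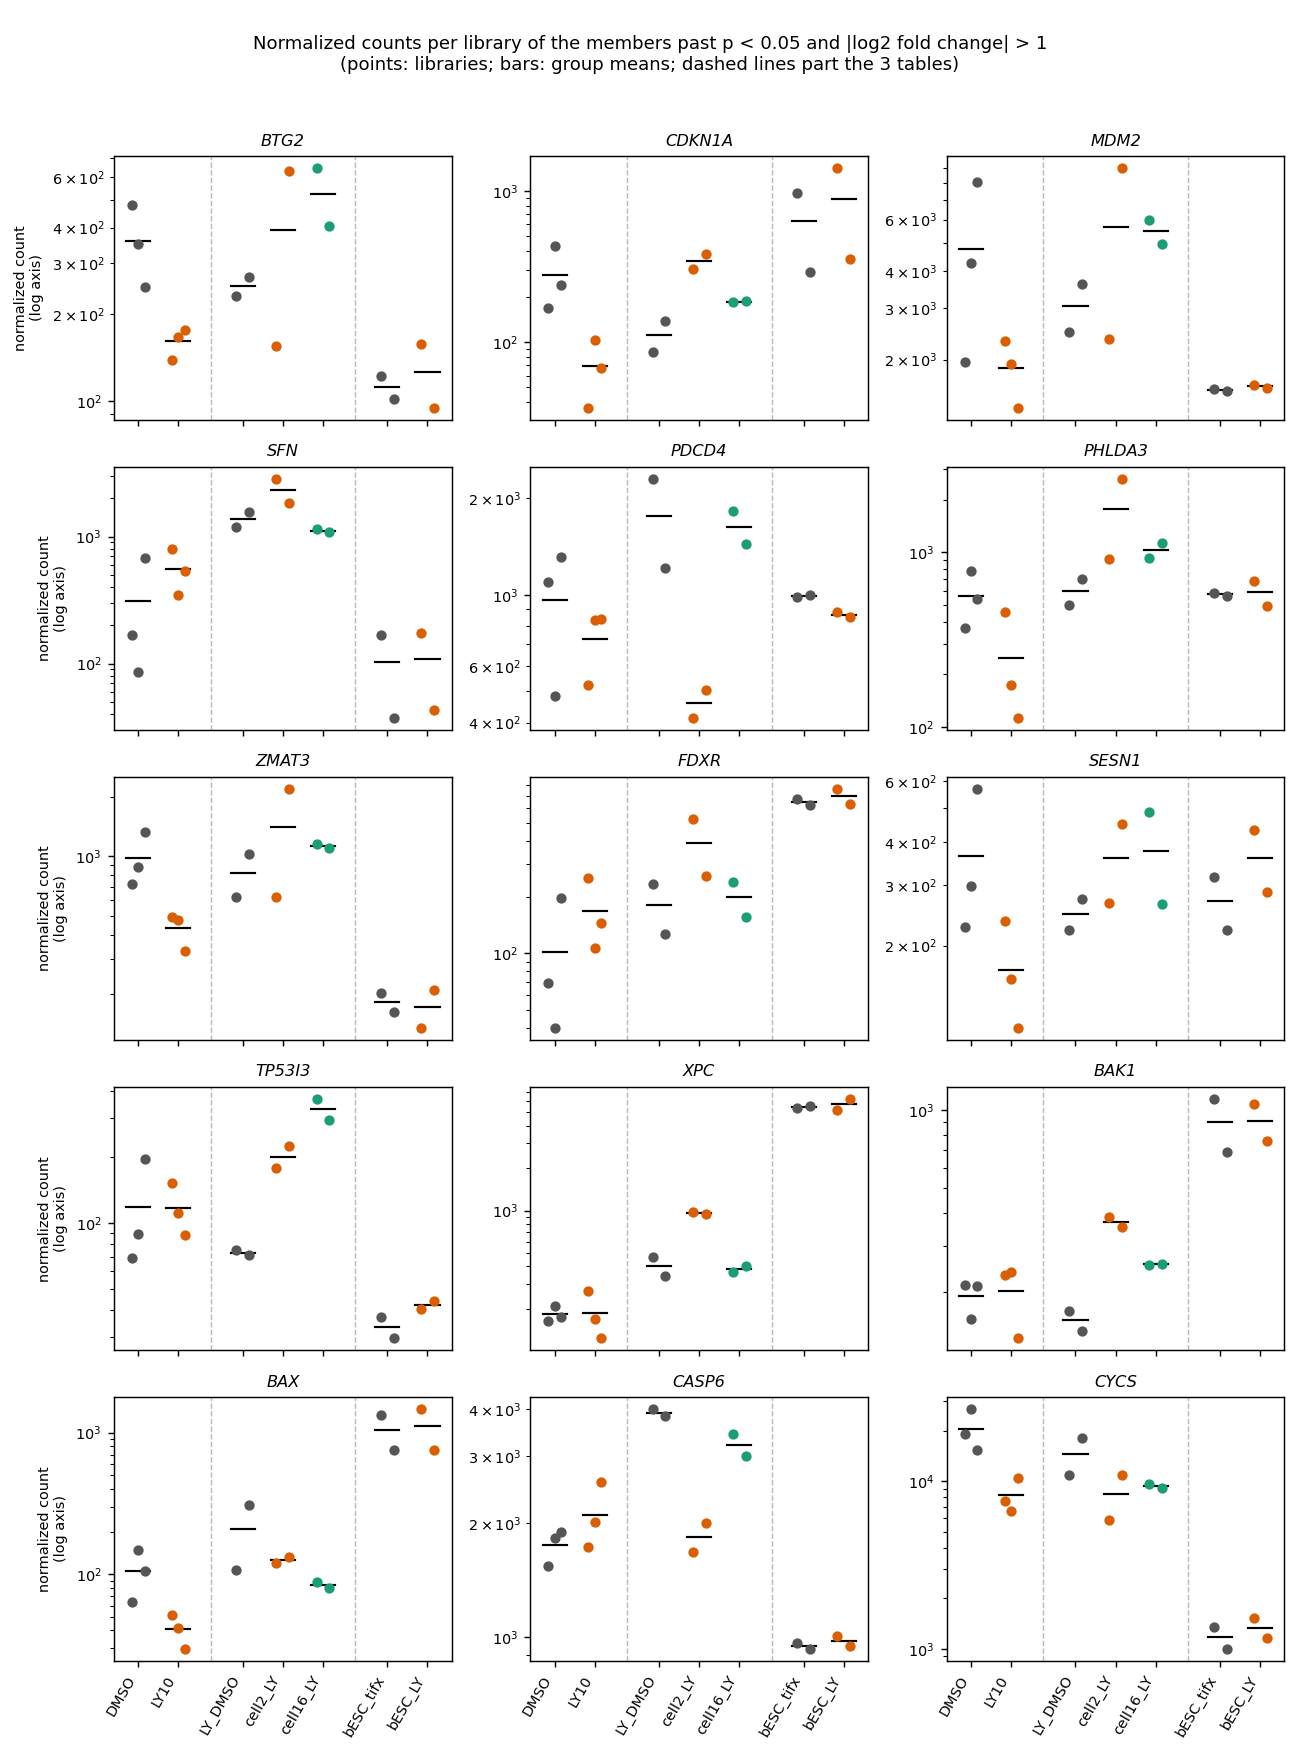
Normalized counts on a log axis of the 15 members past the threshold in at least 1 comparison, with 1 point per library and a bar at each group mean; dashed lines part the 3 tables, and levels are comparable only within a table. CDKN1A is lower in all LY10 than in all DMSO blastocysts and higher in both cell2_LY than in both LY_DMSO blastocysts, TP53I3 is highest in cell16_LY, and PDCD4 is lowest in cell2_LY.

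In the second experiment, several p53 targets, CDKN1A among them, were higher in cell2_LY than in LY_DMSO at the unadjusted threshold. Of 42 members tested, 6 rose and 2 fell in cell2_LY against LY_DMSO, beside 17% of all 14529 tested genes (8.71% higher and 8.34% lower). CDKN1A, XPC, TP53I3, PHLDA3 and FDXR of the p53 target roles rose and PDCD4 fell (6 of 20 tested), and of the apoptosis roles BAK1 rose and CASP6 fell (2 of 22). The p53 target roles had 17 positive and 3 negative differences with a median of 0.44, and the apoptosis roles 7 positive and 15 negative with a median of -0.23. The median over all tested genes was 0.00. By role, 7 of 8 checkpoint genes, 4 of 5 death and growth targets and 5 of 6 metabolic targets were higher, and 5 of 7 genes of the apoptosome and caspases, 4 of 6 BH3-only genes and all 3 inhibitors of apoptosis were lower.

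CDKN1A was at 305 and 383 normalized counts in cell2_LY and 86.2 and 137 in LY_DMSO (log2 fold change 1.64, SE 0.38, adjusted p = 0.0782 by limma). XPC (chr22:58040272-58063241), which finds distorted DNA for nucleotide excision repair, was at 969.7 and 951 against 468 and 344 (log2 fold change 1.26, SE 0.29, adjusted p = 0.0782). TP53I3 (chr11:74983559-74989608), a quinone oxidoreductase tied to oxidative stress, was at 177 and 223 against 75.1 and 71.2 (log2 fold change 1.43, SE 0.36, adjusted p = 0.0838). In each of these 3 genes both treated blastocysts lay above both controls and near each other. TP53I3 overlaps FAM228B on the other strand, at a mean of 113 normalized counts beside 201 for TP53I3.

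PHLDA3 was at 918 and 2644 normalized counts in cell2_LY and 498 and 703 in LY_DMSO, with the second cell2_LY blastocyst far above the first (log2 fold change 1.40, SE 0.46, adjusted p = 0.123 by limma). FDXR, the mitochondrial ferredoxin reductase, was at 522 and 259 against 235 and 127 (log2 fold change 1.09, SE 0.48, adjusted p = 0.202). It did not pass in 9 of the 18 alternatives run. PDCD4 (chr26:31436457-31463096), an inhibitor of translation initiation, was at 414 and 504 against 2299 and 1211. Both treated blastocysts lay below both controls (log2 fold change -1.87, SE 0.35, adjusted p = 0.0711), with the smallest p of the members here, and PDCD4 overlaps BBIP1 on the other strand, at a mean of 155 beside 1281. In all 10 members had an unadjusted p under 0.05 by limma, beside 24.6% of all tested genes, and AEN at 0.94 and SFN at 0.74 were those that did not reach the fold.

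BAK1 (chr23:7712944-7720170) was at 388 and 355 normalized counts in cell2_LY and 169 and 141 in LY_DMSO (log2 fold change 1.26, SE 0.32, adjusted p = 0.0838 by limma). The other effector, BAX, was at 120.1 and 132 in cell2_LY and 107 and 309.6 in LY_DMSO, a log2 difference of -0.53 (adjusted p = 0.56). CASP6 (chr6:15694142-15714982), an executioner caspase that cleaves nuclear lamins, was at 1679.5 and 2004 against 3985 and 3821, lower in both treated embryos (log2 fold change -1.09, SE 0.24, adjusted p = 0.078). CASP6 did not pass in 3 of the 18 alternatives run, and its log2 fold change ranged from -1.22 to -0.71. BBC3, at 55.7 and 19.7 against 13.0 and 16.6, was too low for a firm value. PMAIP1 was at 1167 and 658 against 1950.5 and 1239 (-0.83, adjusted p = 0.209), and CYCS at 5851 and 10954 against 10952 and 18026 (-0.81, adjusted p = 0.221). CASP2, the caspase of the PIDDosome, gave -1.86 (adjusted p = 0.209), on low counts of 6.55 and 10.9 against 23.2 and 48.1. The prosurvival genes MCL1 and BCL2L1 gave 0.14 and -0.29.

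Across all members, 16 did not overlap between cell2_LY and LY_DMSO, 9 higher and 7 lower in cell2_LY, where 53.7% of all tested genes did not overlap (26.9% higher and 26.9% lower). The positive median of the p53 target roles depended on cell2_LY replicate 2, since without it the median was -0.13, with 9 positive and 11 negative, and without replicate 1 it was 0.88. The apoptosis median was -0.45 without LY_DMSO replicate 1, -0.13 without cell2_LY replicate 1 and -0.15 without cell2_LY replicate 2. Without cell2_LY replicate 2, CASP6 and PDCD4 had an adjusted p under 0.05, as had 875 of all tested genes. CDKN1A, XPC, TP53I3, BAK1 and PDCD4 passed in every alternative run, and PHLDA3 did not without cell2_LY replicate 2 or LY_DMSO replicate 1. With the reads on genes as library size, which moved the median of all genes to 0.24 and the share of calls that were higher from 51.1% to 73.2%, 7 members rose and 1 fell, since AEN passed and CASP6 did not, and the medians were 0.67 over the p53 target roles and 0.004 over the apoptosis roles (11 positive and 11 negative). The summed trophectoderm markers, 12 genes, were at 162418 to 228508 normalized counts in cell2_LY and 127275 to 155502 in LY_DMSO. Some single lineage markers did not overlap either. GATA2 was at 2251 to 2637 in cell2_LY and 447 to 839 in LY_DMSO, and DPPA3 at 1516 to 2139 and 5037 to 5859. GATA6, at 4670 to 4836 and 3091 to 3225, and PDGFRA, at 562 to 1814 and 2283 to 7248, went opposite to LY10. Others overlapped, such as NANOG at 41.4 to 823 and 781 to 1228. The part of these markers in these results was not tested.

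**Figure D3:**
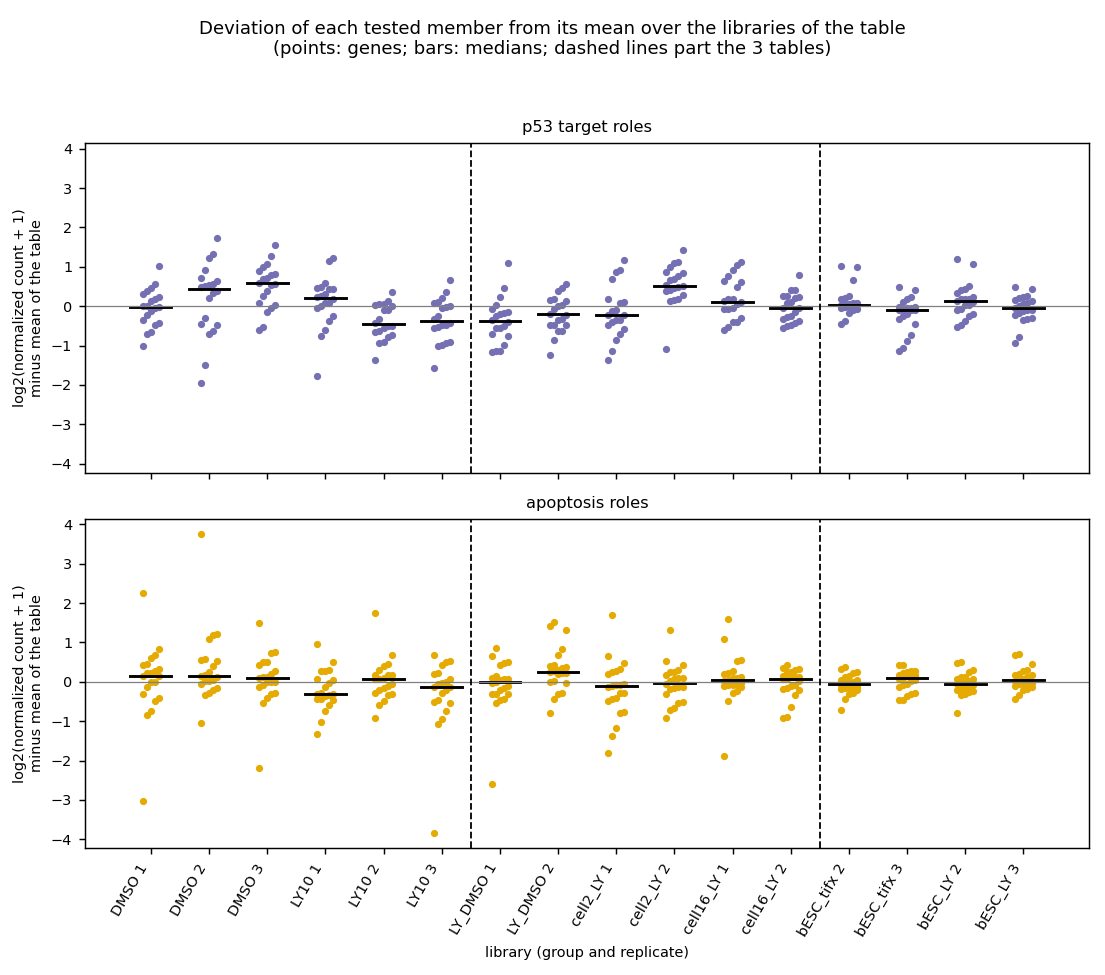
Deviation of each tested member from its own mean over the libraries of its table, on the scale of log2(normalized count + 1), with 1 point per gene, a bar at the median and dashed lines between the tables; the upper panel holds the p53 target roles and the lower the apoptosis roles. The p53 median is 0.52 in cell2_LY replicate 2 and -0.22 in cell2_LY replicate 1, and 0.21 in LY10 replicate 1 against -0.46 and -0.37 in the other LY10 blastocysts.

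The p53 targets also varied between blastocysts of the same group. Between the 2 cell2_LY blastocysts, 17 of the 20 tested genes of the p53 target roles were higher in replicate 2, with a median log2 difference of 0.69, and 25% were over 2-fold higher, beside 11.9% of all tested genes. MDM2 was at 2345 and 8976 normalized counts in this pair, ZMAT3 at 624 and 2211, BTG2 at 155 and 626 and FAS at 139 and 487. The apoptosis roles had a median difference of -0.03 in the same pair. LY10 replicate 2 was under LY10 replicate 1 by a median of -0.61 over the p53 target roles, with 35% over 2-fold lower beside 9.78% of all tested genes. Among the controls, DMSO replicate 3 was above DMSO replicate 1 by a median of 0.57, with MDM2 at 8086 and 1964. The 2 cell16_LY blastocysts were nearer to each other, with a median of -0.13.

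LY from the 16-cell stage gave 1 call among the 42 members tested, TP53I3, beside 5.22% of all tested genes (3.25% higher and 1.97% lower). TP53I3 was at 366 and 293 normalized counts in cell16_LY and 75.1 and 71.2 in LY_DMSO, 4.43-fold higher (log2 fold change 2.15, SE 0.36, adjusted p = 0.206 by limma), and it passed in every alternative run. The p53 target roles had 14 positive and 6 negative differences with a median of 0.47, which was 0.11 without cell16_LY replicate 1, and the apoptosis roles 8 positive and 14 negative with a median of -0.09, which was -0.25 without LY_DMSO replicate 1, 0.03 without LY_DMSO replicate 2 and -0.01 without cell16_LY replicate 1. Both comparisons use the same 2 control blastocysts, so a p53 median above 0 in both is not independent. The summed trophectoderm markers were at 166646 to 228293 normalized counts in cell16_LY, above LY_DMSO, mainly through KRT8 and PTGS2. Single markers differed in direction, as TFAP2C was lower in cell16_LY (1093 to 1276 against 1723 to 1749) and KRT18 lay within the LY_DMSO range. Their part in the results was not tested.

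MDM2 was at 5965 and 4972 normalized counts in cell16_LY and 2482 and 3626 in LY_DMSO (0.86, adjusted p = 0.752 by limma). Both treated blastocysts were above both controls, but the difference was within the spread of the fit. CDKN1A at 183 and 185 and PHLDA3 at 928 and 1128 were also above both controls, with log2 differences of 0.76 (adjusted p = 0.694) and 0.79 (adjusted p = 0.735). MDM4, the partner of MDM2 that blocks p53, was at 1515 and 1916 against 3213 and 2526, and TIGAR, a fructose bisphosphatase that lowers glycolysis, at 1469.8 and 1351 against 2264 and 2825. Both were lower in cell16_LY without overlap, at -0.74 (adjusted p = 0.598) and -0.84 (adjusted p = 0.62), and with TP53I3 they made up the members with an unadjusted p under 0.05. BAX was at 88.3 and 79.3 against 107 and 309.6 (-1.12, adjusted p = 0.679). PMAIP1, BBC3, BAD, BID, BCL2L11 and BMF, the 6 tested BH3-only genes, were all lower, from -0.95 for BMF to -0.01 for BCL2L11, and none passed. In all, 24 members did not overlap, 14 higher and 10 lower, where 42.9% of all tested genes did not (20.9% higher and 22% lower).

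No gene of the whole table had an adjusted p under 0.05 in cell16_LY against LY_DMSO by limma or by voom, while 1107 (7.62%) had an unadjusted p under 0.05 by limma, 3 of them members. The member count was 1 to 3 when single libraries were left out: BAX and TIGAR fell without LY_DMSO replicate 1, CDKN1A and CASP8 rose without LY_DMSO replicate 2, and BTG2 rose without either cell2_LY blastocyst.

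Between the 2 start stages, 3 members passed in cell16_LY against cell2_LY, beside 11.3% of all tested genes (5.58% higher and 5.77% lower). PDCD4 was higher in cell16_LY, at 1825 and 1435 normalized counts against 414 and 504 (log2 fold change 1.82, SE 0.35, adjusted p = 0.186 by limma). XPC was lower, at 364 and 405 against 969.7 and 951 (log2 fold change -1.32, SE 0.29, adjusted p = 0.191), and so was SFN (chr2:126340193-126341536), at 1139 and 1086 against 2858 and 1832 (log2 fold change -1.04, SE 0.30, adjusted p = 0.193). For PDCD4 and XPC the cell16_LY blastocysts lay within the range of the LY_DMSO blastocysts, with differences from them of -0.04 and -0.06. CASP6 at 0.81, BIRC2 at 0.72 and CDKN1A at -0.89 had an unadjusted p under 0.05 by limma and did not reach the fold. TP53I3, called in both treatments against LY_DMSO, differed between them by 0.72 (adjusted p = 0.327).

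The median over the members was 0.09 in this comparison and 0.04 over all tested genes, and 22 members did not overlap, 10 higher and 12 lower in cell16_LY, beside 54.5% of all tested genes (28.2% higher and 26.3% lower). The apoptosis roles had 14 positive and 8 negative differences, the p53 target roles 9 and 11. Without cell2_LY replicate 1 the p53 target roles had 3 positive and 17 negative, with a median of -0.54. Without cell2_LY replicate 2 they had 12 and 8, with a median of 0.33. The member median was -0.28 without cell2_LY replicate 1 and 0.33 without cell2_LY replicate 2. With the reads on genes as library size the member median was -0.13, and the share of calls that were higher went from 49.1% to 25.0%. Of all tested genes, 0 had an adjusted p under 0.05 by limma and 0 by voom, with 2596 (17.9%) at an unadjusted p under 0.05 by limma.

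**Figure D4:**
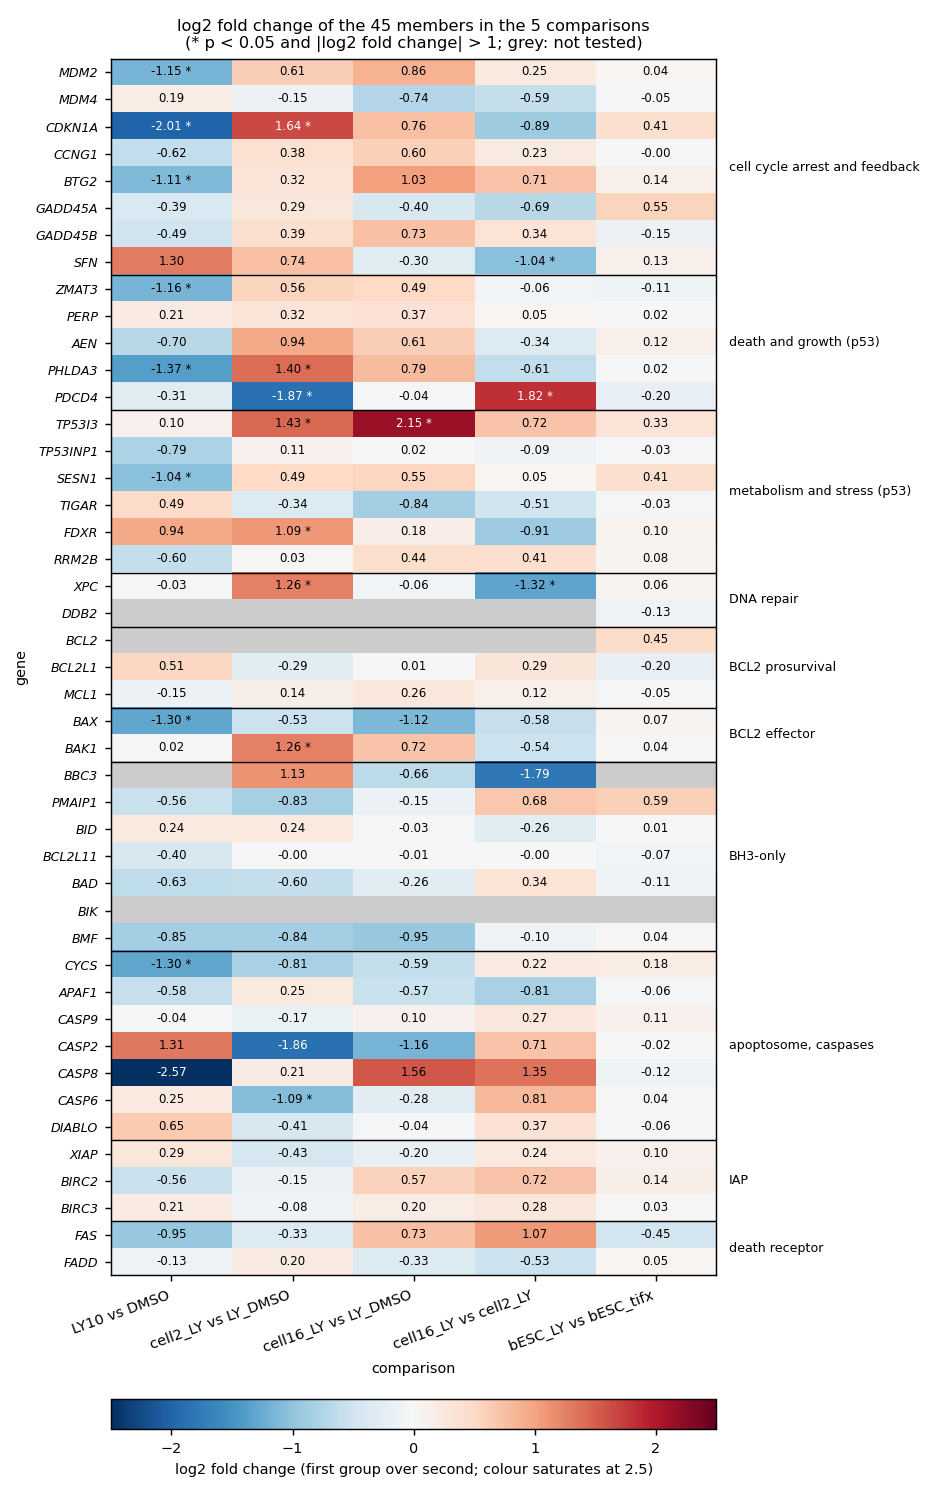
log2 fold change of all 45 members in the 5 comparisons, ordered by role, with the value in each cell, an asterisk where p was under 0.05 and the absolute value above 1, and grey where a gene was not tested. CDKN1A and PHLDA3 carry asterisks of opposite sign in the first 2 columns, TP53I3 is called in both treatments of the second experiment, and the bESC column holds no asterisk.

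LY10 against DMSO and cell2_LY against LY_DMSO are both treatments from the 2-cell stage and share no library, so their members can be set side by side. Over the 41 members tested in both, the fold changes had a Pearson r of -0.20 and a Spearman rho of -0.17 across genes, and 16 (39.0%) had the same sign, beside an r of 0.05 and 48.0% over 13019 genes. No p is given, because genes within a library do not vary on their own. Of the 20 genes of the p53 target roles, 13 were lower in LY10 and higher in cell2_LY, 2 the other way, 4 higher in both and 1 lower in both. CDKN1A and PHLDA3 passed in both experiments with opposite signs. Over all genes, 324 passed in both and 211 of them had opposite signs. The difference between the experiments was not tested, since the tables were normalized separately and had their own controls.

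Of the 21 genes of the apoptosis roles, 9 were lower in both experiments, CYCS and BAX among them, and 2, BID and BAK1, higher in both. For CYCS the differences were -1.30 and -0.81, and for BAX -1.30 and -0.53, and each passed in LY10 only. Whether LY10 and cell2_LY differ in CYCS or BAX was not tested.

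**Figure D5:**
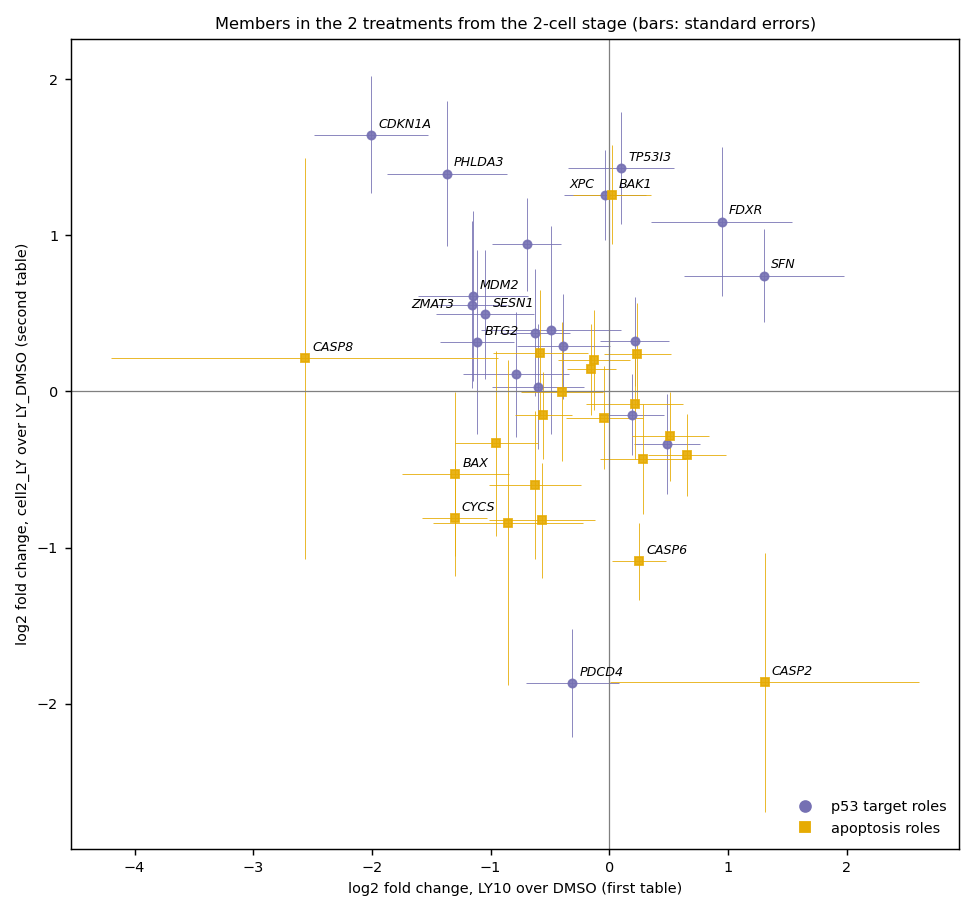
log2 fold change of the 41 members tested in both treatments from the 2-cell stage, LY10 over DMSO on the horizontal and cell2_LY over LY_DMSO on the vertical axis, with standard errors; circles are p53 target roles and squares apoptosis roles. CDKN1A and PHLDA3 lie at the upper left, lower in LY10 and higher in cell2_LY, and CYCS and BAX at the lower left.

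In the bESCs none of the 43 members tested passed with LY, beside 0.0749% of all 16012 tested genes (0.0375% in each direction), and none had an unadjusted p under 0.05 by limma. With the library number as a block, again none passed, 7 members and 1276 of all tested genes had an unadjusted p under 0.05, and no member but 116 of all tested genes had an adjusted p under 0.05. Without the block, of all tested genes, 0 had an adjusted p under 0.05 by limma and by voom, and 16 (0.0999%) had an unadjusted p under 0.05 by limma. The median difference was 0.04 over the members and -0.01 over all tested genes. Libraries of the same number were nearer to each other than libraries of the same treatment in several members. CDKN1A was at 1412 and 354 normalized counts in the bESC_LY libraries numbered 2 and 3 and at 976 and 291 in the bESC_tifx libraries of the same numbers. In the same order, SFN was at 175 and 43.0 with LY and at 167 and 37.4 without it, and BAX at 1461 and 752 with LY and at 1337 and 748 without it. In TP53INP1, a p53-induced nuclear protein, the order of the numbers turned, at 1870.5 and 3755 with LY and 1952 and 3753 without it. The summed fibroblast markers were at 8583 to 9080 with LY and 8623 to 9505 without it.

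Because of that spread the interval for CDKN1A in the bESCs reached from -1.98 to 2.80 (95% interval from limma, log2). It takes in the rise of cell2_LY and ends just short of the fall of LY10. This interval is from the fit without the block, so its width includes the difference between library numbers. Within each number CDKN1A was higher with LY. In the same fit the interval for PDCD4 reached from -0.61 to 0.21, which leaves out the fall seen in cell2_LY. Without overlap but within that spread, MDM2, TP53I3, AEN and PMAIP1 were higher and FAS, PDCD4 and BCL2L1 lower in bESC_LY, 7 of 43, where 14.2% of all tested genes did not overlap (6.83% higher and 7.36% lower). MDM2, for one, was at 1644 and 1606 with LY and 1591 and 1567 without it.

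A list of 51 further genes of the pathway, which hold no member, gave the surroundings. In LY10 against DMSO 43 were tested, 4 rose and 7 fell, beside the 14.7% of all tested genes. Among the falls were RPS27L, a p53-induced ribosomal protein (-1.73), and TRIAP1, a small p53-induced inhibitor of apoptosis (-1.02), and among the rises AIFM1, the apoptosis inducing factor of mitochondria (1.11), IGFBP3 (1.37) and the kinase PLK3 (1.24). RPS27L was at 3660.1, 7309 and 4281 normalized counts in DMSO and 1940.3, 1314 and 1231 in LY10, without overlap. The median over the 43 was 0.10.

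In cell2_LY against LY_DMSO 44 of the 51 were tested and 5 passed, beside 17% of all tested genes. Prosurvival BCL2L2 (2.61), PIDD1, the platform for caspase 2 (1.75), and BOK, a further effector (1.47), rose while the checkpoint kinase CHEK1 (-1.06) fell. BCL2L2 was at 166 and 163 normalized counts in cell2_LY and 33.4 and 20.3 in LY_DMSO, higher in both treated blastocysts. Between the start stages 8 of 44 passed, beside 11.3% of all tested genes, among them CFLAR, an inhibitor of caspase 8 (1.94), which was higher in cell16_LY, and SESN2 (-1.26), PIDD1 (-1.73) and BCL2L2 (-1.77), which were lower. In the bESCs 0 of 45 tested passed and 0 had an unadjusted p under 0.05.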

How the data were processed

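RNA from 12 single blastocysts (SMART-Seq) and 4 bESC libraries was sequenced by the authors. Per the methods, reads were trimmed with fastp 0.23.2, aligned with HISAT2 2.0.5 (STAR is also named) and counted with featureCounts 1.5.0-p3, and the authors tested genes with DESeq2 1.20.0. The deposited values are FPKM by gene, in 3 tables normalized separately. Columns of the authors' own fold changes and p-values were not used. FPKM times gene length gave whole reads for 100% of values (within 0.02 reads), which were scaled from the library size the authors used to the geometric mean of those sizes in the table. Genes with a mean of at least 10 were tested on log2(normalized count + 1) with limma 3.58.1 (R 4.3.3; moderated test with a mean-variance trend, two-sided), all groups of a table in 1 fit, with p-values adjusted by Benjamini-Hochberg over all tested genes. The 3 groups of the second table shared 1 estimate of the spread. Positions are those of the deposited tables and equal ARS-UCD2.0 in RefSeq for 44 of 45 members, FDXR being the other. Floors (3 reads) cover counting error only, and the intervals of limma cover the spread between libraries. The members and lists were chosen with earlier results of these data known. Named genes were the members past the threshold in at least 1 comparison, and the highest and lowest of each role or those that define it. Members named for a low p or a wide difference without a call were chosen after their values were seen. Of other pathway genes, the 3 with the smallest p in each direction among those called. Alternatives were other pseudocounts (0.5 and 5), filters (none and 50), scalings, voom and sample weights, a replicate block, log2(FPKM + 1), the groups compared alone, and each library left out. The reads on genes as library size were added after seeing the data. The fits were tested on simulated data. Some other pathway genes that the rule would name are not reported here.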

Additional observations from a re-analysis of the deposited data

Results flagged for a closer look

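Between the 2 start stages of LY, 3 members differed in the direct comparison of cell16_LY with cell2_LY (limma, unadjusted p under 0.05 and absolute log2 fold change above 1): PDCD4 by 1.82 (adjusted p = 0.186), XPC by -1.32 (adjusted p = 0.191) and SFN by -1.04 (adjusted p = 0.193). None passed after adjustment over all genes. SFN no longer passed without cell2_LY replicate 1, while PDCD4 and XPC passed in every alternative run.

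CDKN1A was lower in all 3 LY10 than in all 3 DMSO blastocysts (log2 fold change -2.01) and higher in both cell2_LY than in both LY_DMSO blastocysts (1.64), although both treatments began at the 2-cell stage. The difference between the experiments was not tested, since they have separate controls and separately normalized tables, and the labels give no dose for the second. CDKN1A passed in each experiment under every alternative run.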

How the results depend on the processing

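No named member changed sign with a call under any alternative. Genes called moved from 2097 to 1350 in LY10 against DMSO with a mean of at least 50, from 758 to 1238 with no filter and 454 with log2(FPKM + 1) in cell16_LY against LY_DMSO, from 2476 to 1628 and from 1649 to 958 with log2(FPKM + 1) in cell2_LY against LY_DMSO and in cell16_LY against cell2_LY, and from 12 in the bESCs to 158 with no filter, 2 with a mean of at least 50 and 22 with log2(FPKM + 1). Members called moved from 8 to 5 in LY10 with log2(FPKM + 1), from 1 to 2 in cell16_LY against LY_DMSO with sample weights or with the compared groups alone, and from 3 to 5 between start stages with the reads on genes as library size. That library size moved the member median from 0.17 to 0.39 in cell2_LY and from 0.09 to -0.13 between start stages, as the median of all genes went to 0.24 and -0.18. The causes of the other changes were not tested. With 1 library left out, genes called were 1327 to 3449 (LY10), 350 to 1362 (cell16_LY), 1576 to 3404 (cell2_LY), 816 to 2910 (between start stages) and 29 to 58 (bESC). Members called were 3 to 9, 1 to 3, 7 to 12, 3 to 7 and 0 to 0 in the same order, and the member median -0.50 to -0.29, 0.01 to 0.13, -0.15 to 0.35, -0.28 to 0.33 and -0.0043 to 0.058. A group left with 1 library was assumed to vary like the others.

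Replicate numbers are shared between groups, but nothing says that they mark a batch. Correlations of same-numbered deviations were -0.117, 0.168 and -0.0997 in the first blastocyst table, -0.232 to 0.121 in the second and 0.789 in the bESCs, where there are 2 pairs. No pairing was assumed in the blastocysts, and in the bESCs the data hint at one that the labels do not state. With the replicate number as a block, 9 members were called in LY10 (1 higher, SFN, and 8 lower, with CASP8 in and SESN1 out), and the counts of members in the other comparisons did not change. In the bESCs the block gave 146 genes called and 116 with an adjusted p under 0.05, 0 of them members, and 7 members with an unadjusted p under 0.05 against 0 without it. With 2 or 3 libraries a group and single embryos, differences of the size of the spread between embryos could not be detected.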
